A study of Mus musculus with 10 samples.

Results

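The 10 genes described here encode heat shock proteins of the mouse abdominal aorta, and they were taken by name, with no threshold on their values. They are Hspa1a, Hspa1b, Hspa8, Hsph1, Hsp90aa1, Dnajb1, Hspb1, Cryab, Hspd1 and Hspe1, out of 17991 genes with a named probe. All 10 had a probe of their own, which read above the floor of the measurement on all 10 arrays. The infrarenal group (below the kidney arteries) and the suprarenal group (above them) held 5 arrays each, and every sample came from male ApoE-/- mice 14 weeks old, a strain without apolipoprotein E in which cholesterol builds up in the blood. The aortas of 2 mice made a pool, each pool gave 1 infrarenal and 1 suprarenal array, and the pools are numbered 1, 6, 8, 11 and 12. No treatment is named in the labels, no wild-type mice were analysed here, and a pooled sample does not show how its animals differ from each other.

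Heat shock proteins are chaperones that bind unfolded proteins and help them to fold, to reassemble or to be degraded. Hsp70 proteins work in cycles of ATP hydrolysis that DnaJ (Hsp40) co-chaperones start and Hsp110 proteins reset, and Hsp90 acts later on client proteins such as kinases and steroid receptors. When cells are stressed, the transcription factor HSF1 binds heat shock elements, arrays of the unit GAA in alternating orientation, and genes such as Hspa1a are transcribed strongly from a low base. Small heat shock proteins hold unfolded proteins without ATP and are abundant in muscle, and Hsp60 with Hsp10 forms the folding chamber of mitochondria.

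Levels are given as log2 of the authors' scaled intensity, so that 0 is about the median probe of an array. Levels of different genes are not compared with each other, because each probe has its own brightness. The deposited intensities had a median close to 1 on each array, and any pair of arrays correlated across probes, which are not independent replicates, with r between 0.962 and 0.975. Markers of smooth muscle were bright on every array, with Myh11 between 7.96 and 8.20 in infrarenal and between 7.83 and 8.23 in suprarenal samples. The brown fat gene Ucp1 varied widely from array to array, between 5.64 and 8.16 in infrarenal and between 4.37 and 8.43 in suprarenal samples. The probe of the deleted gene Apoe read between -5.09 and -3.16 in infrarenal and between -4.42 and -2.57 in suprarenal samples, where the floor is -5.17.

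The promoters below are shown because they hold the heat shock elements named above, and because they show how close Hspa1a and Hspa1b are. RefSeq windows of build GRCm38.p6 were matched for 7 of the 10 genes. The first 4 lines run 5′ to 3′ up to the base before a transcription start of the gene, and the last covers the stretch between a start of Hspd1 and the start of Hspe1. Capitals mark heat shock elements found by matching GAANNTTC or TTCNNGAA, each of which reads the same on both strands.
Hspa1a (chr17:34972157-34972406, minus strand): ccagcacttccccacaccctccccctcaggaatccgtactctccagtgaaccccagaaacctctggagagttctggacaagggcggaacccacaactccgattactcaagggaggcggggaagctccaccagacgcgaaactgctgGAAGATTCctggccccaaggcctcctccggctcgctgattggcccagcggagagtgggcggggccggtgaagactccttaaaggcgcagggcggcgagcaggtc
Hspa1b (chr17:34959239-34959488, minus strand): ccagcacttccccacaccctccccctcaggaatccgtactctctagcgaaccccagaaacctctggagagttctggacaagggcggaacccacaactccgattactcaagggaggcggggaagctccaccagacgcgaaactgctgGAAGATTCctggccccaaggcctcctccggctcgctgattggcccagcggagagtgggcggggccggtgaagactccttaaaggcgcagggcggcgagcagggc
Hsph1 (chr5:149636337-149636586, minus strand): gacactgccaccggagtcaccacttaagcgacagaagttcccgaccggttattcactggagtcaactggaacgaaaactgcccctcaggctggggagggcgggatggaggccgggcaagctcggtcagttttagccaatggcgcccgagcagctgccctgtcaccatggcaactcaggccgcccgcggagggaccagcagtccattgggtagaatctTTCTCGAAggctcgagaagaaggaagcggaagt
Hspb1 (chr5:135887669-135887918, plus strand): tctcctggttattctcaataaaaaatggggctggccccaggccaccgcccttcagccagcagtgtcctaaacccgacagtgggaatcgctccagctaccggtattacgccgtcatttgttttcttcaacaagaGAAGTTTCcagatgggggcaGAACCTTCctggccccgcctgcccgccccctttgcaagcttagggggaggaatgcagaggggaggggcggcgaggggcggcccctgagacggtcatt
Hspd1-Hspe1 (chr1:55087933-55088147, plus strand): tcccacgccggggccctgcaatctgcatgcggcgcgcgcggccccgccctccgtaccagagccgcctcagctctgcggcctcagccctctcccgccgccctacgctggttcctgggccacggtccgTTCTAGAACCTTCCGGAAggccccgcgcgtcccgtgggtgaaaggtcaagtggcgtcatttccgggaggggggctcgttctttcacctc

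The windows of Hspa1a and Hspa1b differed at 3 of 250 bases, C44T, T47C and T249G, counted from 1 at the 5′ end with the Hspa1a base first. Both held 1 element, 104 to 97 bases before the start. Hspd1 and Hspe1 lie on opposite strands, and the 215 bases between the Hspe1 start and an annotated Hspd1 start held the longest run of elements. That run had 2 overlapping matches to the longer forms GAANNTTCNNGAA or TTCNNGAANNTTC. Another annotated Hspd1 start lies within Hspe1, and its window had no match. Of the 7 genes, 6 had a match to the shorter form, and the Dnajb1 windows had none. The shorter form was present in 12.8% of 32851 such promoter windows and the longer in 0.466%. These shares count single windows, while the 6 genes are counted over any of their windows. The matches of Hspd1 and Hspe1 lie in 1 shared stretch, and the windows of Hspa1a and Hspa1b are nearly identical. The 6 genes are therefore not independent and are not set against these shares. A match is a description of the letters in the window and not a bound site.

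Hspa1a and Hspa1b, which encode the inducible Hsp70, differed more among pools than between regions in their values, though no test passed after adjustment. Hspa1a read 4.70, 5.87, 5.69, 5.18 and 4.71 in the infrarenal samples of pools 1, 6, 8, 11 and 12, and 4.82, 5.87, 5.80, 5.04 and 5.08 in their suprarenal samples. The 4 arrays of pools 6 and 8 were the highest in both regions while the regions overlapped. The samples of a pool differed by 0.36 log2 units or less. Averaged over both regions, the highest pool stood 1.11 log2 units above the lowest, or 2.16-fold. The margin (95% interval) of a difference between pools was 0.32, so that pools 6 and 8 did not differ beyond it (0.125) while pool 8 stood above pool 11 by 0.64. The neighbouring pools 11 and 12 differed by 0.215 and pools 12 and 1 by 0.137, both within the margin, while pool 11 stood above pool 1 by 0.352, beyond it. This margin applies to each pair of pools on its own and is not adjusted for the number of pairs. The regional difference was -0.09 ± 0.09 log2 units (SE, n = 5 pools; limma adjusted p = 0.764), with a 95% interval from -0.29 to 0.11.

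Hspa1b gave the same picture. It read 5.06, 6.21, 5.99, 5.68 and 5.06 in infrarenal samples of pools 1, 6, 8, 11 and 12, and 5.40, 6.23, 6.29, 5.33 and 5.57 in suprarenal samples. Again the 4 arrays of pools 6 and 8 were the highest, and the pools spanned 0.99 log2 units. The regional difference was -0.16 ± 0.13 log2 units (SE, n = 5 pools; limma adjusted p = 0.714). It was -0.29 without pool 11, -0.074 without pool 12 and -0.020 after quantile normalization. For Hspa1a it was -0.15 without pool 11 and -0.021 without pool 12. Over the 10 arrays, which share animals in pairs, the probes of Hspa1a and Hspa1b correlated at r = 0.979. Either probe may also bind the transcript of the other gene, which was not tested, so they are not counted as independent readings.

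**Figure D1:**
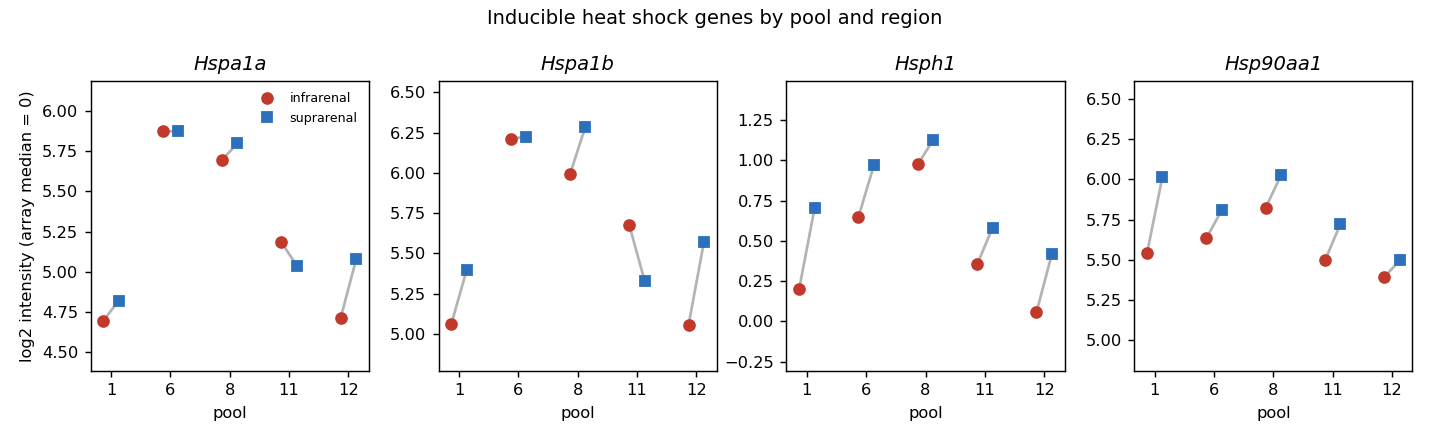
Log2 intensity (y axis, array median near 0, the same span in each panel) of Hspa1a, Hspa1b, Hsph1 and Hsp90aa1 by pool (x axis), with the infrarenal sample as a circle left of the suprarenal sample as a square, and a grey line joining the samples of a pool. For Hspa1a both samples of pools 6 and 8 lie between 5.69 and 5.87, above all others, while Hsph1 and Hsp90aa1 lie lower in the infrarenal sample of each of the 5 pools.

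Differences among the 5 pools were tested with limma's moderated F test, with region as a covariate. Across all probes 5 of 35714 passed after Benjamini-Hochberg adjustment, or 0.014%, and 0 of the 10 heat shock genes did. At an unadjusted p under 0.05 there were 4 heat shock genes, Hspa1a, Hspa1b, Hsph1 and Hsp90aa1, against 5.88% of all probes. The probes of Hspa1a and Hspa1b may bind each other's transcripts, so these 4 are not 4 independent readings. Hspa1a had the rank 21 by p among the 35714 probes, with an unadjusted p of 0.000118 and an adjusted p of 0.195. Hspa1b had an adjusted p of 0.438 and Hsph1 of 0.586, so the pool pattern of these genes is given as values that did not pass. The median span of the pool levels was 0.66 log2 units over the 10 genes, against 0.327 over 17848 probes brighter than the median probe and 0.473 over all. In bulk tissue, more cells that express a gene and more RNA per cell cannot be told apart.

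Hsph1 encodes the Hsp110 protein that exchanges the nucleotide of Hsp70. Its values differed among pools and between regions, though neither test passed after adjustment. It read 0.20, 0.65, 0.97, 0.35 and 0.06 in infrarenal samples of pools 1, 6, 8, 11 and 12, and 0.70, 0.97, 1.13, 0.58 and 0.42 in suprarenal samples. Pool 8 was the highest and pool 12 the lowest in both regions, a span of 0.81 log2 units. The margin (95% interval) of a difference between pools was 0.36. Pool 8 lay within it of pool 6 (0.24), and pool 12 of pool 11 (0.23) and pool 1 (0.21), so the order of these is not resolved. The infrarenal sample was below the suprarenal one in 5 of 5 pools. The regional difference was -0.31 ± 0.10 log2 units (SE, n = 5 pools), and it did not pass in limma (adjusted p = 0.638; exact sign-flip permutation p = 0.062, two-sided, the smallest that 5 pools allow).

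Hsp90aa1, the stress-inducible cytosolic Hsp90, differed in the same direction. Its level was 5.54, 5.63, 5.82, 5.50 and 5.39 in infrarenal samples of pools 1, 6, 8, 11 and 12, and 6.02, 5.81, 6.03, 5.72 and 5.50 in suprarenal samples. The infrarenal sample was the lower in 5 of 5 pools, although the regions overlapped. The difference was -0.24 ± 0.08 log2 units (SE, n = 5 pools; limma adjusted p = 0.638), and after quantile normalization it was -0.10. Pools spanned 0.48 log2 units, with pool 8 the highest as for Hsph1 and with pool 12 the lowest. The margin (95% interval) of a difference between pools was 0.29. Pool 8 lay within it of pool 1 (0.146) and pool 6 (0.203), and pool 12 of pool 11 (0.165) and pool 6 (0.277). The order of these pools is thus not resolved, while pool 8 stood above pool 12 beyond the margin.

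Dnajb1 encodes the DnaJ co-chaperone that is induced with Hsp70 under heat stress, and it varied least of the 10. Its 5 infrarenal samples lay between 2.92 and 3.21 and its 5 suprarenal samples between 3.03 and 3.27. Means were 3.06 ± 0.11 in infrarenal and 3.12 ± 0.10 in suprarenal samples (SD, n = 5 each), and the pools spanned 0.22 log2 units. Pool 6, the highest for Hspa1a, was the lowest for Dnajb1, at 2.98. The whole span of the Dnajb1 pools lay within the margin (95% interval) of a difference between pools, 0.28, so their order is not resolved.

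Hspa8 encodes the constitutive Hsc70, and its probe was the one that read higher in the infrarenal sample of 5 of 5 pools. It read -1.68, -1.51, -1.66, -1.32 and -1.75 in infrarenal samples of pools 1, 6, 8, 11 and 12, and -3.07, -2.07, -2.16, -1.61 and -1.78 in suprarenal samples. The difference of 0.55 ± 0.24 log2 units (SE, n = 5 pools) did not pass in limma (adjusted p = 0.638), and without pool 1 it was 0.35. With an offset added to the intensities in place of the floor it was 0.26. This probe was designed on an expressed sequence tag and is dim, with 27.2% of all probes dimmer. A brighter probe is annotated to both Atp5j2 and Hspa8, and because it cannot be given to either gene it was not used for Hspa8. That probe lay between 6.63 and 7.44 in infrarenal and between 6.73 and 7.65 in suprarenal samples, lower in the infrarenal sample of 3 of 5 pools.

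The small heat shock genes Hspb1 and Cryab differed little between regions. Hspb1, which encodes the actin-protecting Hsp25, averaged 8.02 ± 0.15 in infrarenal and 7.98 ± 0.14 in suprarenal samples (SD, n = 5 each). Cryab, which encodes the desmin-binding αB-crystallin, read 5.38, 5.32, 5.61, 5.56 and 5.41 in infrarenal samples of pools 1, 6, 8, 11 and 12, and 5.34, 5.05, 5.83, 5.52 and 5.91 in suprarenal samples. The highest and the lowest Cryab values were both suprarenal, in pools 12 and 6. The regional differences were 0.04 ± 0.08 log2 units for Hspb1 and -0.07 ± 0.11 for Cryab (SE, n = 5 pools), with 95% intervals from -0.14 to 0.22 and from -0.33 to 0.19.

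Skeletal muscle markers varied with these 2 genes from array to array. The mean log2 level of 11 fast muscle markers lay between 1.99 and 5.21 in infrarenal and between 1.01 and 5.29 in suprarenal samples, and the 4 arrays with the highest Hspb1 included the 3 with the highest fast muscle level. The mean of 7 slow muscle markers lay between -1.46 and 0.17 in infrarenal and between -1.13 and 2.81 in suprarenal samples. The suprarenal samples of pools 12 and 8 had the highest slow muscle level (2.81 and 1.66) and the highest Cryab. Over the 10 arrays, the largest correlation of Hspb1 with any of 13 marker lists was r = 0.789 with fast muscle, and that of Cryab was r = 0.732 with slow muscle. The part of muscle tissue in the levels of these genes was not tested.

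Hspd1 and Hspe1 encode Hsp60 and Hsp10 of the mitochondrial matrix, and each has a start beside the stretch shown above. Hspd1 read 5.001, 4.24, 4.53, 4.27 and 3.93 in infrarenal samples of pools 1, 6, 8, 11 and 12, and 4.70, 5.38, 5.11, 4.77 and 4.40 in suprarenal samples. It was lower in the infrarenal sample of 4 pools and higher in pool 1, where the difference was 0.30, against -1.14 in pool 6. The mean difference of -0.48 ± 0.18 log2 units (SE, n = 5 pools), or 0.717-fold, was the largest negative one of the 10 genes, did not pass in limma (adjusted p = 0.638) and was -0.31 without pool 6.

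Hspe1 read 2.08, 1.27, 2.22, 1.46 and 1.67 in infrarenal samples of pools 1, 6, 8, 11 and 12, and 2.07, 2.07, 2.22, 2.14 and 1.49 in suprarenal samples. The infrarenal samples of pools 6 and 11 and the suprarenal sample of pool 12 stood low, while pools 1 and 8 had almost equal values in both regions. The difference was -0.26 ± 0.16 log2 units (SE, n = 5 pools; limma adjusted p = 0.666). It was -0.13 without pool 6 and -0.15 without pool 11.

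The 3 arrays with the lowest Hspe1 were also the 3 with the lowest brown adipocyte level. The mean of 9 brown adipocyte markers was 2.94 and 3.50 in infrarenal samples of pools 6 and 11 and 2.54 in the suprarenal sample of pool 12, and between 4.27 and 5.64 on the other 7 arrays. Among the 13 marker lists, the largest correlation over the 10 arrays was r = 0.853 for Hspe1 with brown adipocyte markers and r = 0.804 for Hspd1 with general adipocyte markers. Hspd1 had r = 0.67 with brown adipocyte markers. With smooth muscle markers the correlation was nearly as large and negative, r = -0.769 for Hspe1 and r = -0.756 for Hspd1. The mean of 8 general adipocyte markers lay between 4.98 and 5.73 in infrarenal and between 4.95 and 6.38 in suprarenal samples. The part of fat tissue in the levels of the chaperonin genes was not tested.

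**Figure D2:**
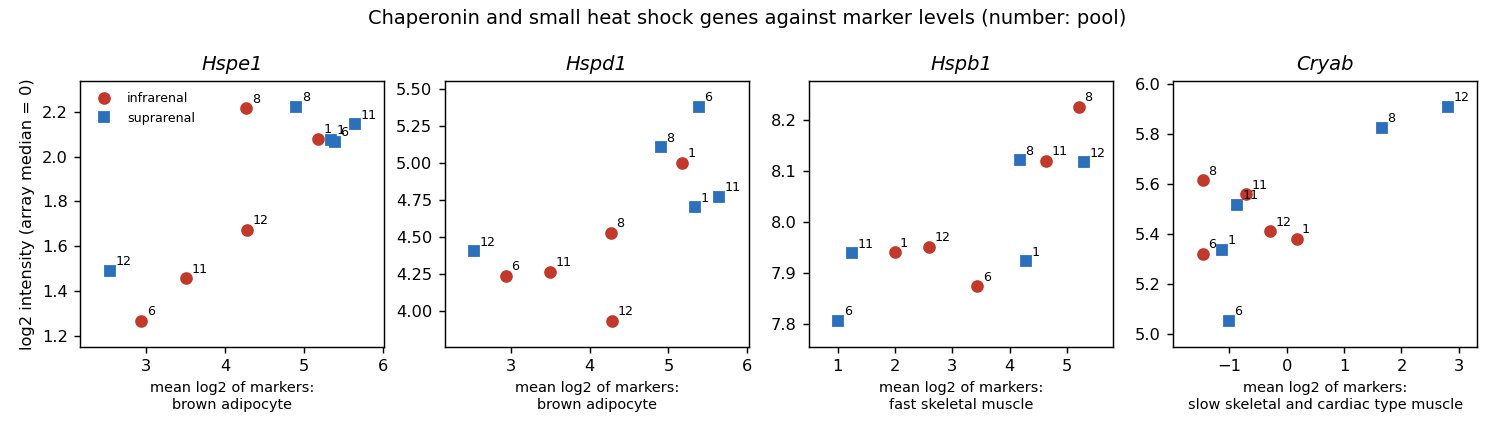
Log2 intensity (y axis) of Hspe1 and Hspd1 against the mean log2 level of brown adipocyte markers, of Hspb1 against fast muscle markers and of Cryab against slow muscle markers (x axes), 1 point per array, circles for infrarenal and squares for suprarenal samples, with the pool number beside each. The 3 arrays lowest in Hspe1, at 1.27, 1.46 and 1.49, are the 3 lowest in brown adipocyte markers.

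Between the regions, 0 of the 10 heat shock genes passed in limma with the pool as a block, as did 0 of 36061 probes (0%). At an unadjusted p under 0.05, 3 genes were lower in infrarenal aorta (Hsph1, Hsp90aa1 and Hspd1), against 4.51% of all probes. The 3 probes are brighter than the median probe, and of such probes 7.84% were lower at that cut, as were 11.3% of the brightest 10%. Hspa8 was higher, against 3.05% of all probes. Of the 10 differences 8 were negative, with a median of -0.13 log2 units, where 54.2% of all probes and 68.4% of those brighter than the median probe were negative. Brighter probes were lower in infrarenal samples in general: the median difference was -0.02 over all probes, -0.07 over those brighter than the median probe and -0.11 over the brightest 10%, of which 84.9% were negative. After quantile normalization, which removes such a shift, 5 of the 10 differences were negative, with a median of 0.0034, against 48.2% of all probes and 46.4% of the brighter ones. The differences of Hspa1a, Dnajb1 and Cryab turned positive in that setting, so no direction is given for them.

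**Figure D3:**
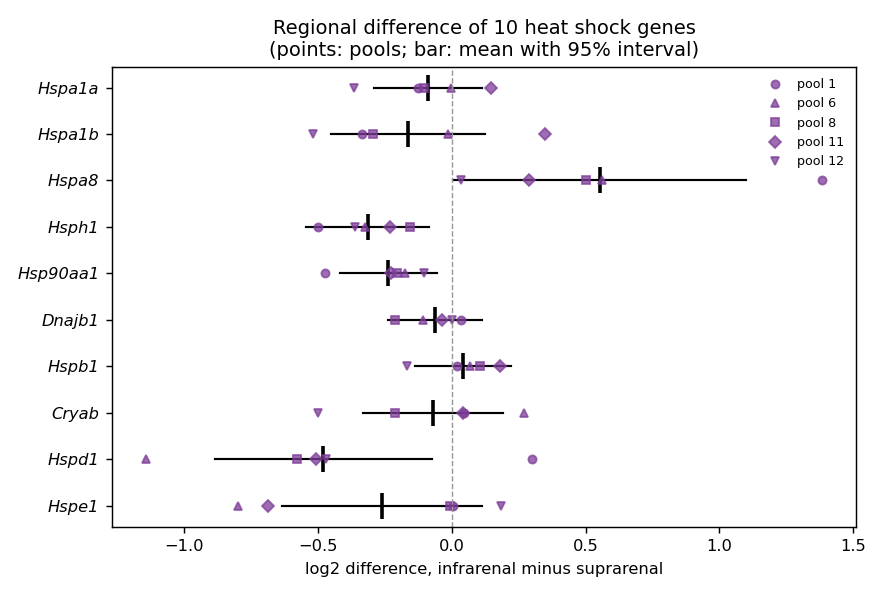
Log2 difference, infrarenal minus suprarenal (x axis), of each heat shock gene, with a symbol for each of the 5 pools, a vertical mark for the mean and a horizontal bar for its 95% interval. The symbols of Hsph1 and Hsp90aa1 all lie below 0 and those of Hspa8 all above it, against 5.29% and 3.89% of all probes with complete values.

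The other chaperone genes of the network, 66 by name in 8 lists, were read the same way. Of the 62 that were measured 0 passed between regions in limma, 18 were lower and 0 were higher in infrarenal aorta at an unadjusted p under 0.05, and 54 had negative differences. Their median difference was -0.20 log2 units, and after quantile normalization it was -0.10, with 43 of 62 negative. Among probes brighter than the median probe, where 54 of the 62 lay, 7.84% were lower at an unadjusted p under 0.05 and 68.4% were negative. After quantile normalization 46.4% of these brighter probes were negative, with a median of 0.012, and the counts in that setting below are to be read against that share. Co-chaperones made up most of the 18. Of the 13 DnaJ genes 6 were among them, with Dnaja1 at -0.37 ± 0.08 log2 units, Dnaja4 at -0.46 ± 0.13 and the mitochondrial Dnaja3 at -0.64 ± 0.20 (SE, n = 5 pools), each lower in 5 of 5 pools. After quantile normalization, 10 of the 13 DnaJ genes were negative, against 12 without it.

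Of 13 co-chaperones of Hsp70 and Hsp90, 7 were among the 18. Cacybp differed by -0.27 ± 0.07 log2 units, Stip1, the Hop adaptor that joins Hsp70 to Hsp90, by -0.23 ± 0.08, and St13, an Hsp70-interacting adaptor, by -0.33 ± 0.12 (SE, n = 5 pools; limma adjusted p = 0.638 for each). The Hsp110 relative Hspa4 differed by -0.30 ± 0.09 and the mitochondrial Hsp90 gene Trap1 by -0.44 ± 0.18. Of the 8 subunit genes of the cytosolic chaperonin CCT 8 were negative, and 6 after quantile normalization, with Cct7 at -0.21 ± 0.08. Of 5 genes of mitochondrial chaperones and proteases 5 were negative, and 4 after quantile normalization, with Lonp1 at -0.44 ± 0.18. Among the 6 small heat shock genes other than Hspb1 and Cryab, Cryaa, Hspb6 and Hspb7 were negative in both settings, with Hspb7 at -0.26 ± 0.11. Of the heat shock factors, Hsf4 differed by -0.40 ± 0.19 and Hsf2 by 0.05 ± 0.14. Hsf1 and the Hsp90 gene Hsp90ab1 were listed but were not among the 62 measured, so no level is given for them.

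Markers of macrophages, fat, slow muscle and sympathetic cells all had negative differences beside these chaperones, while those of several other cell types did not. Of 8 macrophage markers 8 were negative, 4 of them (C1qa, C1qb, C1qc and Cd14) at an unadjusted p under 0.05 and lower in 5 of 5 pools, and 0 passed in limma. Their mean level lay between 3.91 and 4.14 in infrarenal and between 4.13 and 4.596 in suprarenal samples. Of 9 brown adipocyte markers 9 were negative and of 8 general adipocyte markers 8, with 1 of each list at an unadjusted p under 0.05. Slow muscle (7 of 7) and sympathetic markers (7 of 7) were negative too, and Schwann cell (3 of 4) and fibroblast markers (5 of 8) mostly so. The marker differences are given without quantile normalization only. Fewer were negative for endothelial cells (4 of 8), smooth muscle (3 of 10), fast muscle (1 of 11), adrenal cortex (1 of 5) and kidney (0 of 4). Among probes brighter than the median probe, 68.4% were negative and 7.84% were lower at an unadjusted p under 0.05. The part of these cell types in the chaperone differences was not tested.

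In the F test among pools, 0 of the 62 passed, against 0.014% of all probes, and 8 had an unadjusted p under 0.05, against 5.88%. Serpinh1, which encodes the collagen chaperone Hsp47, read 5.84 in the infrarenal and 5.76 in the suprarenal sample of pool 1, and between 6.63 and 6.88 on the other 8 arrays (adjusted p = 0.135). Hspa5, the Hsp70 of the endoplasmic reticulum, read 5.17, 5.87, 5.86, 5.23 and 5.20 in infrarenal samples of pools 1, 6, 8, 11 and 12, and 5.20, 5.93, 6.06, 5.55 and 5.43 in suprarenal samples (adjusted p = 0.248). Pools 6 and 8 were thus the highest for Hspa5 as for Hspa1a, and pool 1 was the lowest for Serpinh1, Hspa5 and Hspa1a alike. Fkbp5, an Hsp90 co-chaperone induced by glucocorticoids and named after its values were seen, ran differently, with 0.87 in the infrarenal and 0.77 in the suprarenal sample of pool 6, against 2.54 and 2.50 in pool 1 (adjusted p = 0.243).

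**Figure D4:**
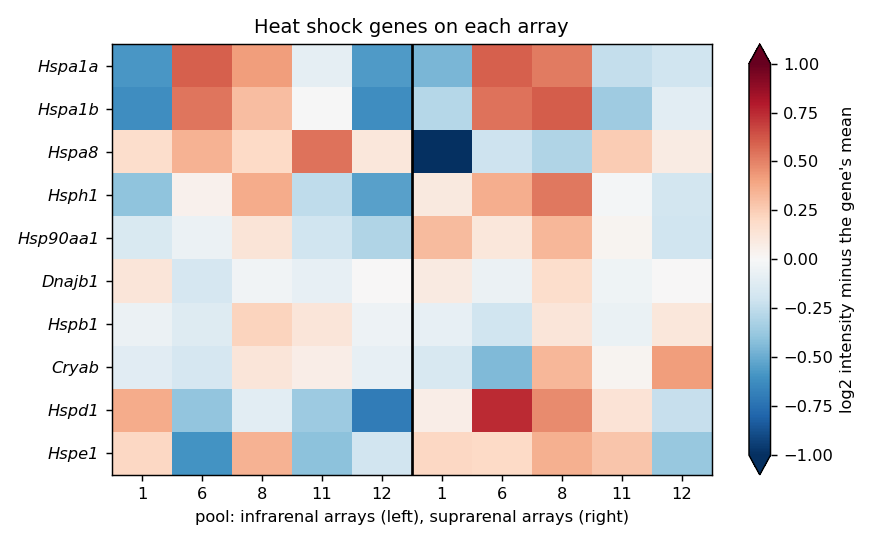
Log2 intensity minus the gene's mean over the 10 arrays (colour; values beyond 1 take the end colour) of the 10 heat shock genes (rows) on the infrarenal arrays, left of the black line, and the suprarenal arrays, right of it, in the order of pools 1, 6, 8, 11 and 12. Hspa1a and Hspa1b are red in pools 6 and 8 on both sides of the line, and Hspa8 has its lowest value, -3.07, in the suprarenal sample of pool 1.

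Immediate early genes, which respond within minutes to handling and other stress, were read beside Hspa1a. Their mean over 18 genes lay between 2.22 and 3.22 in infrarenal and between 2.11 and 3.05 in suprarenal samples, highest in pool 6 in both regions. Atf3 read 4.06 in the infrarenal and 3.76 in the suprarenal sample of pool 6, against 1.51 to 2.37 on the other 8 arrays. Jun read 6.01 and 5.91 in the same samples, against 4.29 to 5.16 on the others. Fos lay between 0.48 and 3.98 in infrarenal and between 1.29 and 3.22 in suprarenal samples, and Egr1 between 0.67 and 1.73 in infrarenal and between 0.28 and 1.63 in suprarenal samples. Pool 8, high for Hspa1a, was not high for Atf3 or Jun, with Jun at 4.84 in its infrarenal and 4.29 in its suprarenal sample. The part of these responses in the levels of heat shock genes was not tested.

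The 5 probes that passed the F test among pools, chosen after their values were seen, were those of the clock genes Arntl, Ciart and Hlf and 2 without a gene name. Arntl read 3.34 and 2.29 in infrarenal and 3.48 and 2.31 in suprarenal samples of pools 6 and 8, and between -0.45 and 0.54 on the other 6 arrays (adjusted p = 0.0044). The pools high in Arntl were those high in Hspa1a and Hspa1b. The labels give no hour of tissue collection, and its part in the levels of heat shock genes was not tested. The amount of RNA amplified was 0.35 µg in both samples of pool 6, 0.34 and 0.35 µg in those of pool 8, and between 0.35 and 0.54 µg in the others.

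Within the 10 genes, the 5 pairs of highest correlation over the arrays were Hspa1a with Hspa1b (r = 0.979), Hsph1 with Hsp90aa1 (r = 0.862), Hspb1 with Cryab (r = 0.828), Hspa1b with Hsph1 (r = 0.828) and Hspa1a with Hsph1 (r = 0.803). Hspd1 and Hspe1 had r = 0.708. Hspa8 with Hsp90aa1 had the lowest r of the 45 pairs, -0.703. Among 11158 other named genes brighter than the median probe, those whose levels over the 10 arrays were most like the mean of the 10 heat shock genes were Mrps14, Aasdh, Rmdn2, Gpn1, Lman1 and Haus7, with r between 0.938 and 0.899. These values describe 10 arrays from 5 pools and carry no test.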

How the data were processed

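RNA from 5 infrarenal and 5 suprarenal samples was measured on 1 single-colour array each. The deposited values are linear intensities scaled per array by the authors, as read from the values. The sources used here do not state the scanner, the background correction or the scaling method. Per the labels' protocols, between 0.34 and 0.54 µg of RNA was amplified into biotin-labelled cRNA.

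Intensities under 0.0278 (percentile 1 of positive values) were raised to it, log2 was taken and no further normalization was applied. Of 36227 probes, 36061 had at least 3 values in each region. Probes were named from the platform annotation, with symbols updated by Entrez identifier through RefSeq (GRCm38.p6); of 21615 probes with 1 symbol, 21487 matched, 681 had several symbols and 13931 none. The probe of highest mean stood for a gene; each of the 10 genes had 1 probe of its own.

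limma 3.58.1 in R 4.3.3 (lmFit, eBayes with trend) tested region with the pool as a block on all probes, and the 4 pool coefficients by F test on 35714 complete probes, two-sided, with Benjamini-Hochberg adjustment at 0.05. The samples of a pool share their animals, per the labels, and their deviations from region means correlated between -0.092 and 0.045. On simulated data of 35714 probes, with 50 changed per size, 50% of regional changes of 1 log2 unit, and 0% of pool changes of 1 and 42% of 2 log2 units spread evenly over the pools, were recovered.

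The members, gene lists and tests were chosen with earlier results of these data known. Of each list of other chaperones, up to 3 genes of smallest regional p were to be named; Fkbp5, Hsf2, the 3 clock genes and the 4 macrophage genes were added after their values were seen. Alternatives were no replicate block, no region term, quantile normalization, array weights, an offset of 0.2701 (no floor), RNA input in the model, no variance trend, removal of the dimmest 30% of probes, and each pool left out. The number of arrays limits the precision.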

Additional observations from a re-analysis of the deposited data

Results flagged for a closer look

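Hspe1 in the suprarenal sample of pool 12 read 1.49 log2 units, far from the other 4 suprarenal samples, which lay between 2.07 and 2.22. It was the only such value among 30 sets of 5 examined (the infrarenal levels, the suprarenal levels and the pool differences of the 10 genes), where chance gives about 1.5. The same sample had the lowest brown adipocyte level of the suprarenal samples, 2.54 against 4.90 to 5.64.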

How the results depend on the processing

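Between regions 0 probes were called in 11 of 12 alternatives, among them the fit with no replicate block (0 probes), while 1 was called after quantile normalization. Among pools 5 probes were called, 0 without the variance trend and between 1 and 4 with a pool left out (1 without pool 6, 2 without pool 8, 3 without pool 1 or pool 11). None of the 10 genes passed any test in any alternative, and 115 of 119 regional differences kept their sign. Those that reversed after quantile normalization were Hspa1a (0.059), Dnajb1 (0.027) and Cryab (0.057), and brighter probes as a whole shifted in that normalization, as given above. Cryab also reversed without pool 12 (0.036), where leaving out pools gave -0.16 to 0.036. Pool 12 had the lowest Cryab difference of the 5 pools, -0.50, so the mean without it is higher. Why pool 12 stood low was not tested. The pool span of Hspa1a ran from 0.98 to 1.17 log2 units over the alternatives, and its adjusted p in the F test from 0.12 to 0.995. The highest was without pool 1, where each of the 10 genes had this same adjusted p of 0.995. The span of Hspa1a in that setting was 0.98 log2 units. With the offset the dim Hspa8 probe differed by 0.26 and, with the dimmest 30% left out, it gave no value. Averaging all probes of a gene was not run, because each gene had 1. Dim probes such as that of Hspa8 are read near the floor and are less precise.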
